A study of Mus musculus with 2 samples.

Results

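Later B-lineage cells are cells of the B lymphocyte line that carry the signalling chains of the antigen receptor and no UMI of the surrogate light chain of earlier precursors. They were chosen by their counts in single-cell RNA sequencing of the mouse temporomandibular joint (TMJ), in which a unique molecular identifier (UMI) counts 1 captured RNA molecule. A barcode was kept when it had at least 500 genes, at most 10% mitochondrial UMIs and at most 1% hemoglobin UMIs. A kept cell was chosen when Cd79a and Cd79b together had at least 3 UMIs, Igll1 and Vpreb1 had 0, Pecam1 and Cdh5 had under 2, and Lyz2 had under 10. This selected 94 of 6681 kept cells, out of 13380 barcodes, 61 after PBS and 33 after CFA.

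Both groups were wild-type (WT) mice of the C57BL/6 strain, aged 8 to 10 weeks by the labels, which received PBS or complete Freund's adjuvant (CFA), an oil emulsion with killed mycobacteria that inflames a joint, into the TMJ. The methods state that the mice were female, were injected at 8 weeks of age and had their joints collected 3 weeks later, and the labels do not say to which of these times their age refers. Cells bearing CD45, a surface protein of leukocytes that B-lineage cells also carry, had been removed on magnetic beads, and how many B-lineage cells were lost in that step is not known. The dissected region included bone, and the cells of a group were loaded as 1 library, so that there was 1 library per condition, no replicate and no test.

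B lymphocytes form in the bone marrow of adult mice. A precursor first assembles the heavy chain gene by cutting and joining DNA with the Rag1 and Rag2 proteins, tests it with a surrogate light chain, divides, and then assembles a kappa or lambda light chain. A cell with a complete antigen receptor at its surface is an immature B cell, and later stages gain Ms4a1 (CD20), Ighd (IgD) and MHC class II, while plasma cells secrete antibody.

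The PBS library held 51146169 UMIs in 7671 barcodes and the CFA library 53517206 UMIs in 5709 barcodes. The limits on genes, mitochondrial and hemoglobin UMIs left 2667 PBS and 4014 CFA cells, of which 192 and 126 had at least 3 Cd79a and Cd79b UMIs. After the limits on Pecam1 and Cdh5, genes of endothelial cells, 95 and 64 cells were left, and after that on Lyz2, a gene of myeloid cells, 90 and 56. Without surrogate light chain UMIs there were 61 and 33. Whether the limit on Pecam1 and Cdh5 also left out B-lineage cells was not tested, and no alternative changed it. The median PBS member had 3313 UMIs and 1636 genes, and the median CFA member 4319 UMIs and 1963 genes. Their UMI totals ran from 1298 to 13659 and from 2136 to 112787. The libraries shared 10 barcode sequences, of which 0 were members' barcodes.

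Few cells lay close to the limit on Cd79a and Cd79b. The lowest sum among members was 4 UMIs in the PBS library, in 1 cell, and 5 in the CFA library, in 2 cells, against medians of 15 and 11 and highest sums of 44 and 25. Just outside the limit, 7 PBS and 5 CFA cells had 2 UMIs, of which 4 and 3 had an Ighm UMI. A sum of exactly 3 occurred in 0 cells of either library.

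The genes that mark B-lineage cells were checked against endothelial cells of the same libraries (Pecam1 and Cdh5 of at least 3 UMIs, no Cd79a or Cd79b UMI), since RNA free in the suspension gives UMIs in cells that do not express a gene. Median depths were 6118 UMIs for the 819 PBS and 4633.5 for the 1156 CFA endothelial cells. Shares of cells with a UMI are given as counted and after thinning each cell at random to 1000 UMIs. Shares carry exact Clopper-Pearson 95% intervals, UMI sums and their ratios exact Poisson and conditional intervals. All of these cover counting error only and not differences between animals or preparations. Those of UMI sums and their ratios also leave out differences between cells.

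Ighm, the constant region of the IgM heavy chain (chromosome 12 of GRCm38, 113418558 to 113422730), was not used to choose members. An Ighm UMI was present in 61 of 61 PBS members and 31 of 33 CFA members, against 4.15% of endothelial cells in both libraries. Thinned PBS members had one in 93.4% (84.1 to 98.2%) and CFA members in 87.9% (71.8 to 96.6%), while endothelial cells had one in 0.490% and 1.22%. Vpreb3, a partner of the precursor receptor (chromosome 10, 75943057 to 75949657), had a UMI in 98.4% and 90.9% of members and in 0.733% and 0.606% of endothelial cells. Thinned, these were 83.6% (71.9 to 91.8%) and 72.7% (54.5 to 86.7%), against 0.245% and 0.175%. For both genes the lower limits for members lay above the endothelial shares in both libraries, so most cells carried the genes that their label calls for.

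Ms4a1 (chromosome 19, 11249675 to 11266241), which B cells gain with maturation, was found in a minority of members. Among PBS members 37.7% had a UMI of it and among CFA members 24.2%, against 0.122% and 0.0865% of endothelial cells. Thinned, the shares were 26.2% (15.8 to 39.1%) and 15.2% (5.11 to 31.9%), with 0% of endothelial cells in both libraries and upper limits of 0.451% and 0.322%. Of the antigen receptor's signalling chains, Cd79a lies on chromosome 7 (24897381 to 24902197) and Cd79b on chromosome 11 (106311341 to 106314762), and their values only describe the choice.

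Vpreb3 is shown with its promoter because it marked nearly all members and because Pou2af1, the coactivator of the octamer-binding factors, was among the genes highest over other cells. The 250 bases before its RefSeq start on the + strand of GRCm38.p6, at chr10:75948050-75948299, are printed 5′ to 3′ with the octamer ATTTGCAT in capitals. This start lies within the gene bounds given above, so an annotated transcript begins further upstream.
Vpreb3: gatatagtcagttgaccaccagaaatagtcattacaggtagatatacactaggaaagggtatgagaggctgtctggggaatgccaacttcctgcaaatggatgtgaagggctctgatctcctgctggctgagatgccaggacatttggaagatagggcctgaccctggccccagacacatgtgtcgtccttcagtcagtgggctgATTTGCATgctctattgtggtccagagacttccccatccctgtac
The octamer, searched on both strands, began 45 bases before the start. It was present in 526 of 32851 promoters of this length, or 1.60%, and in 1 of 7 promoters found for the antigen receptor list with Vpreb3 and Ms4a1. That 1 promoter is the Vpreb3 promoter shown here. The letters CCCNNGGG, as in sites of the Ebf1 factor, were in 2 of these 7 and in 11.8% of all, and the E box CAGGTG was in 3 of 7 and in 17.2% of all. A match describes the letters of the window and shows no binding.

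Transcription factors and receptor genes that the choice had not used were higher in members than in the other 2606 PBS and 3981 CFA kept cells, which include the surrogate light chain cells described below. Levels are in CPM, a gene's UMIs divided by all UMIs of the group and put on the same scale for each group, and folds have 10 CPM added to both levels. Besides Igkc, Iglc1, Iglc2 and Ighm, the 20 genes with the highest fold in both libraries included Vpreb3 at 25.9-fold and 25.6-fold, and Ly6d, a surface protein of early lymphoid cells, at 36.9-fold and 24.0-fold. Ikzf3, a zinc finger factor of lymphocytes, was 31.2-fold and 18.4-fold higher. Pax5, the factor that holds cells in the B lineage, was 23.5-fold and 18.5-fold higher, and Pou2af1 was 20.8-fold and 19.9-fold higher. Bach2, a repressor of the plasma cell program, Fcrla, Irf4, Rhoh, Ralgps2, Cecr2, Agbl1, Gm30211, Tmem163, Atp1b1 and Tmem108 completed the 20 genes, with folds between 14.0 and 49.6. These folds are over all members, including the 3 deep CFA cells described next, without which the CFA level of Pax5 was 1052 and not 499 CPM and that of Vpreb3 2031 and not 1001 CPM. Some of these genes were also high in surrogate light chain cells, in which Vpreb3 was at 2732 CPM in PBS and 1702 CPM in CFA and Pax5 at 609 and 589 CPM. Because the members were selected on genes that B-lineage cells share, the folds are a description.

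Before any comparison, 4 members stood apart, by a rule chosen after seeing the data (no Ighm UMI, or at least 50 UMIs of 5 fibroblast genes). In the PBS library 1 cell with 13659 UMIs held 243 UMIs of Dcn and 78 of Col3a1, genes of fibroblast matrix, besides 11 of Cd79a and 9 of Ighm. In the CFA library 1 cell with 31697 UMIs held 533 UMIs of Col3a1, 340 of Col1a2 and 285 of Dcn, with 12 each of Vpreb3 and Ighm. By Scrublet doublet score, the PBS cell ranked above 90.3% and this CFA cell above 95.2% of kept cells of their libraries, and only the CFA cell fell in the highest 5%.

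A further CFA cell, with 33161 UMIs, held 18162 UMIs of Igkc, 2825 of Igha (the IgA heavy chain) and 2059 of Jchain, which joins antibody units, with 0 of Ighm and 68 of Mzb1. These are genes of an antibody-secreting plasma cell. The deepest CFA cell, with 112787 UMIs, held 1383 UMIs of Calca (the neuropeptide CGRP), 597 of Sncg, 474 of Tac1 (substance P) and 412 of Uchl1, genes of sensory neurons, with 6 UMIs of Cd79a and 0 of Cd79b, Vpreb3, Ighm and Pax5. These values go against the label for that cell. The plasma-like cell scored above 98.6% and the deepest cell above 89.1% of kept CFA cells, so the deepest was not in the highest 5%. The 3 CFA cells held 54.0% of all UMIs of the CFA members, the deepest alone 34.3%, and the PBS cell held 5.68% of those of the PBS members. The counts of genes that differ and the CFA to PBS ratios of gene lists are therefore given with all 94 members and with the 90 members left without these 4, 60 of them PBS and 30 CFA cells. Levels of single genes below are without the 4 cells unless stated, and other settings change 1 choice each, starting from all 94 members.

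**Figure D1:**
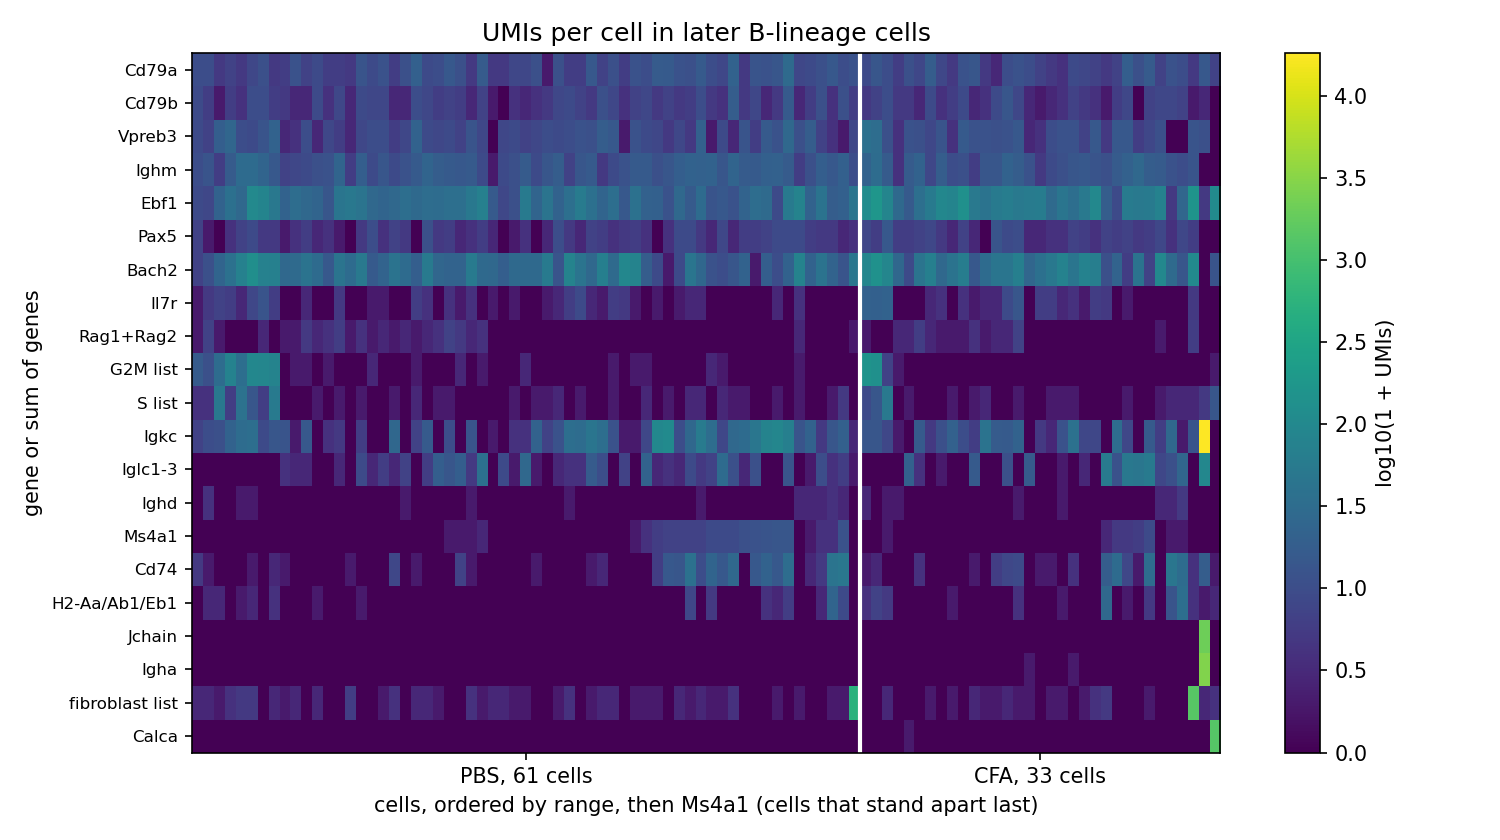
UMIs of selected genes and gene sums (vertical axis) in each of the 61 PBS and 33 CFA members (horizontal axis), in color as log10 of 1 plus the UMIs, with the cells that stand apart last in each library. Ighm and Vpreb3 fill nearly all columns, Ms4a1 and Cd74 fill a block of them, and the 18162 Igkc UMIs of 1 CFA cell stand out.

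The first comparison asked what share of kept cells the members made up after PBS and after CFA. Later B-lineage cells were 61 of 2667 PBS cells, a share of 2.29% (1.75 to 2.93%), and 33 of 4014 CFA cells, a share of 0.822% (0.567 to 1.15%). The CFA share was lower than the PBS share, a ratio of 0.359 (0.236 to 0.547). These intervals cover counting error within 1 library per condition, so whether the share changed with CFA was not tested. Without the 4 cells the shares were 2.25% and 0.747%. Surrogate light chain cells, chosen by the same limits but with at least 1 UMI of Igll1 and Vpreb1, numbered 29 and 23, which was 1.09% (0.729 to 1.56%) of PBS and 0.573% (0.364 to 0.859%) of CFA cells, a ratio of 0.527 (0.306 to 0.909). Later cells were 67.8% (57.1 to 77.2%) of all B-lineage cells in the PBS and 58.9% (45.0 to 71.9%) in the CFA library.

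The size of this difference moved with the limits. Over all barcodes with at least 500 genes as the denominator the ratio was 0.696 (0.457 to 1.06), since the mitochondrial and hemoglobin limits left 2667 of 6134 PBS but 4014 of 4765 CFA barcodes. With no hemoglobin limit, members were 81 of 5845 PBS and 33 of 4353 CFA cells, a ratio of 0.547. With Lyz2 under 2 UMIs, 61 PBS but 19 CFA cells were left and the ratio was 0.207. A Lyz2 UMI was present in 8.20% of PBS and 72.7% of CFA members, and in 5.49% and 71.5% of endothelial cells. Thinned, the member shares were 4.92% and 27.3% and the endothelial shares 0.980% and 27.7%. Lyz2 under 10 UMIs was part of the choice, which left out 4 PBS and 7 CFA cells, so these shares cannot be compared with those of endothelial cells, which had no such limit.

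**Figure D2:**
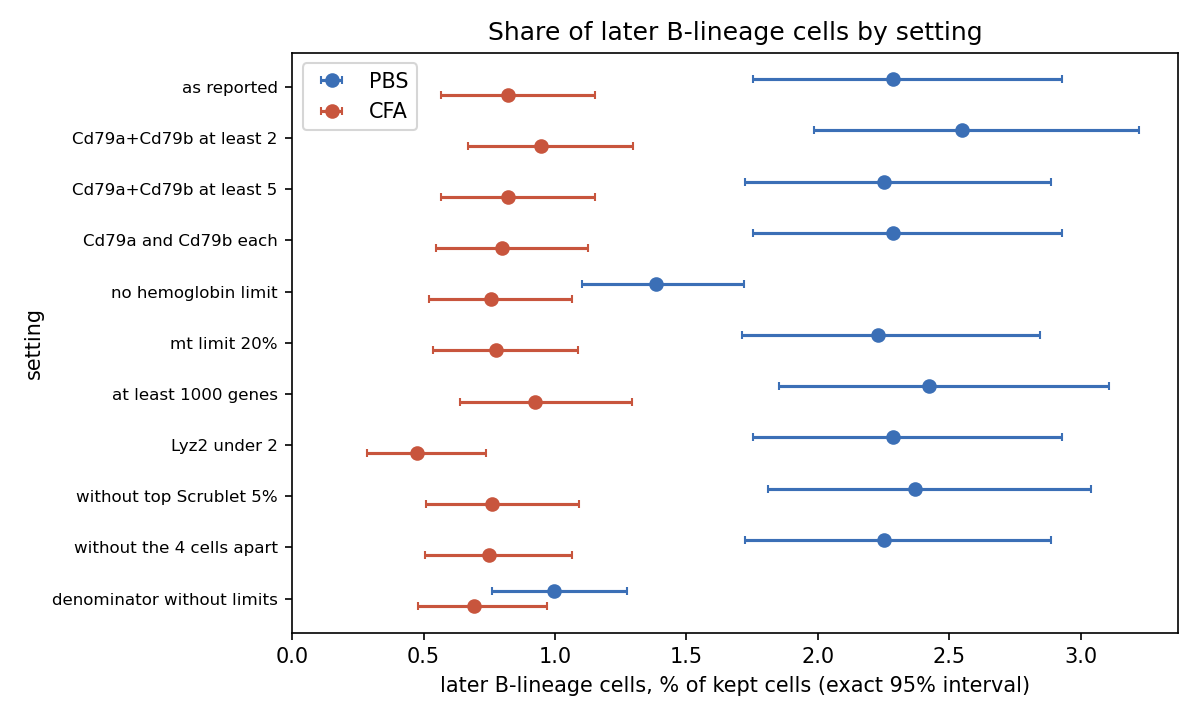
Later B-lineage cells as a percentage of kept cells (horizontal axis) in the PBS and CFA libraries under each setting (vertical axis), with points for the shares and bars for exact 95% intervals. The CFA share lies below the PBS share in every setting shown, and the intervals overlap for the denominator without limits.

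The next question was how far along the B lineage the members were, beginning with cells in division. Dividing cells, with at least 3 UMIs over 12 genes of the G2 and M phases such as Mki67 and Top2a, were 8 of 61 PBS members, or 13.1% (5.84 to 24.2%), and 3 of 33 CFA members, or 9.09% (1.92 to 24.3%). The ratio of these shares, CFA over PBS, was 0.693 (0.197 to 2.44), and a difference was not detectable at this depth. The dividing cells were clearly set off, with 10 to 91 such UMIs in the PBS and 6 to 151 in the CFA library, while 14 and 2 cells had 1 to 2 UMIs and 0 had 3 to 4. They were also deep, with median UMIs of 7080.5 and 12733.

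Dividing members had kappa but no lambda UMIs. Of their light chain UMIs, 131 in the PBS and 33 in the CFA cells were Igkc and 0 were Iglc1, Iglc2 or Iglc3 in either library. Il7r, the receptor for the growth factor IL-7, was at 734 and 1654 CPM, and Ms4a1 at 0 and 27.6 CPM. The sum of the 16 genes of the S phase list was highest in 1 PBS cell with 55 UMIs and 1 CFA cell with 51.

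Rag1 (chromosome 2, 101638282 to 101649501), which cuts the receptor genes for joining, was found in many members that were not dividing. A Rag1 UMI was counted for 34.4% of PBS and 42.4% of CFA members, and for 0.244% and 0.173% of endothelial cells. Thinned, 19.7% (10.6 to 31.8%) of PBS and 24.2% (11.1 to 42.3%) of CFA members had one, and 0% and 0.0874% of endothelial cells, with upper limits of 0.451% and 0.486%. These intervals overlap, so no order of the libraries was detectable. When each member was placed by dividing, then by at least 2 Ighd UMIs, then by at least 1 Rag1 or Rag2 UMI, 20 of 61 PBS and 13 of 33 CFA members fell in the Rag range. The Ighd range took 5 and 3 members, and 28 and 14 fell in no range. After thinning, the limits for dividing and for Ighd were both lowered to at least 1 UMI, and the Rag range held 12 and 6 members. With the lower limit the dividing range, placed first, rose from 8 to 11 PBS members. The ranges before and after thinning were thus cut by different limits. The smaller Rag range is therefore not read as an effect of depth alone.

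Cells with a Rag UMI had few or no Ms4a1 UMIs. Among the members that neither divided nor stood apart, 20 PBS cells had a Rag1 or Rag2 UMI, of which 4 had an Ms4a1 UMI and 0 had at least 3. Of the other 32 PBS cells, 19 had an Ms4a1 UMI and 17 had at least 3. In the CFA library 0 of 13 cells with a Rag UMI had an Ms4a1 UMI, against 7 of 14 cells without, of which 4 had at least 3. The median depths of the cells with and without a Rag UMI were 2876 and 3346.5 UMIs in the PBS and 4036 and 3871 in the CFA library. This division by Ms4a1 was chosen after seeing the data and has no test.

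Some genes, picked after seeing the data, were higher in the Ms4a1 cells than in the Rag cells of both libraries. Cd74, the invariant chain that loads MHC class II, was at 5216 CPM in the 17 PBS cells with at least 3 Ms4a1 UMIs and at 267 CPM in the 20 Rag cells, and at 4543 and 474 CPM in the 4 and 13 CFA cells. Bank1, an adaptor of the B cell receptor, was at 1194 and 220.2 CPM in the PBS and 1558 and 217 CPM in the CFA cells. Ptprc, the gene of CD45 itself, was at 1357 and 519 CPM, and at 1623 and 474 CPM. Btla, Fcmr and Ptpn6, which dampen or tune the receptor, and Cxcr5, the receptor for follicle chemokine, were likewise higher in the Ms4a1 cells of both libraries. B2m and H2-Ob, also genes of antigen presentation, were lower in the Ms4a1 cells of both libraries, and H2-K1 and Cd22 in those of the CFA library. The sum of 4 CFA cells rests on few UMIs, 21 of Ms4a1 and 2 of Cxcr5.

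Of the precursor genes, Cecr2, Il7r, Sox4 and Myb, picked after seeing the data, went the other way, while Cd93 (130 and 98.7 CPM) and Akap12 (1363 and 789.8 CPM) were higher in the Ms4a1 than in the Rag cells of the CFA library. Cecr2 was at 474 CPM in the Ms4a1 cells and 2281 CPM in the Rag cells of the PBS library, and at 325 and 3337 CPM in those of the CFA library. Il7r was at 131 and 409 CPM, and at 64.9 and 671 CPM. Sox4 and Myb, factors of progenitors, were at 131 and 582 CPM and at 131 and 519 CPM in the PBS cells. In the CFA cells Sox4 was at 130 CPM in the Ms4a1 and 1027 CPM in the Rag cells. Vpreb3 hardly differed, at 2305 and 2297 CPM in the PBS and 2596 and 2527 CPM in the CFA library, and so spanned both ranges.

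**Figure D3:**
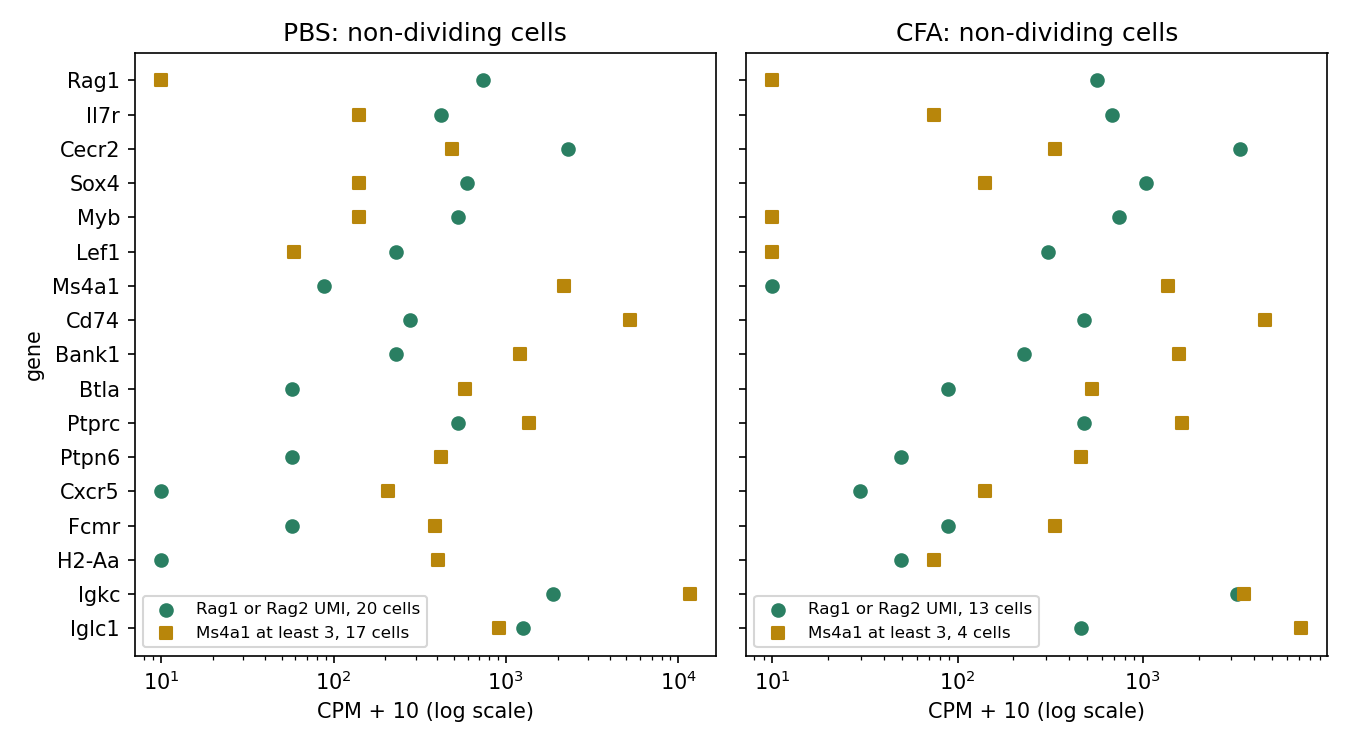
CPM plus 10 on a log scale (horizontal axis) of selected genes (vertical axis) in non-dividing members with a Rag1 or Rag2 UMI (circles) and with at least 3 Ms4a1 UMIs (squares), in the PBS library (left panel) and the CFA library (right panel), without the cells that stand apart. Cecr2, Sox4 and Myb lie higher in the 20 PBS and 13 CFA Rag cells, and Cd74, Bank1 and Ptprc in the 17 PBS and 4 CFA Ms4a1 cells.

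Light chain constant regions were counted next, which does not show that a cell had joined a kappa or lambda gene, since V and J joints were not examined. Igkc (chromosome 6, 70726435 to 70726966), the kappa constant region, was present in 85.2% of PBS and 84.8% of CFA members, and in 72.1% (59.2 to 82.9%) and 69.7% (51.3 to 84.4%) once thinned. It was also present in 1.95% of PBS but 13.2% of CFA endothelial cells, and in 0.245% and 3.15% of them thinned, and what part of the Igkc UMIs of CFA members came from free RNA was not tested. Without the cells that stand apart, 42 of 60 PBS and 22 of 30 CFA cells had at least 10 light chain UMIs. Of the 42 PBS cells, 18 had over 90% kappa, 3 had over 90% lambda and 21 lay between, and of the 22 CFA cells the counts were 9, 5 and 8. More lambda than kappa was found in 9 of the 42 and 9 of the 22 cells. Iglc1, Iglc2 and Iglc3 are near copies of each other, so a UMI may be given to the wrong one, and their sum was used for these counts.

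**Figure D4:**
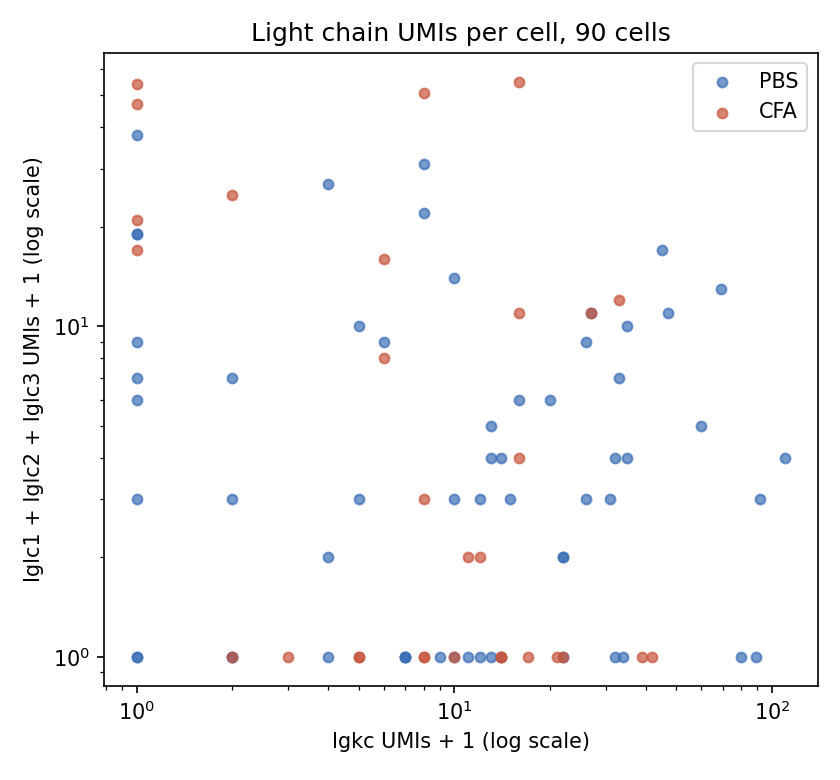
Lambda UMIs plus 1 (vertical axis, log scale) against Igkc UMIs plus 1 (horizontal axis, log scale) in the 90 members without the 4 cells that stand apart, by library. Cells lie along both axes and between them, with 21 PBS and 8 CFA cells of at least 10 light chain UMIs in between.

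Ighd (chromosome 12, 113406604 to 113416324), the IgD constant region that naive B cells add to IgM, was sparse. A UMI of it was found in 12 of 61 PBS members, 19.7% (10.6 to 31.8%), and 8 of 33 CFA members, 24.2% (11.1 to 42.3%), against 0.122% and 0.0865% of endothelial cells. Thinned to 1000 UMIs, 5 PBS members, or 8.20% (2.72 to 18.1%), and 4 CFA members, or 12.1% (3.40 to 28.2%), kept one, against 0% and 0.0874% of endothelial cells. The ratio of CFA to PBS was 1.48 (0.426 to 5.13). Thinning draws at random, and the form of the draw first run gave 0.370 (0.0451 to 3.03), in the other direction, before the form was changed with that value known. Over 100 draws, chosen after seeing the data, PBS members with a UMI numbered 1 to 8 and CFA members 0 to 6, the mean shares were 6.48% and 7.64%, and the CFA share was above the PBS share in 62 draws. No order of the libraries is read from these shares.

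The second comparison asked which genes differed between CFA and PBS within the members. Over genes with at least 100 CPM in 1 library, 471 of 2556 genes, or 18.4%, were over 2-fold higher in CFA and 335, or 13.1%, over 2-fold lower, together 31.5%, with a median log2 ratio of -0.249. Without the 4 cells that stand apart, 134 of 2340 genes, or 5.73%, were higher and 90, or 3.85%, were lower, together 9.57%, and the median was 0.0389. These shares are the background for the gene lists below. The balance of higher and lower genes also moved with the scaling and with the Lyz2 limit, for which the last section gives the counts. Among the genes past 2-fold other than immunoglobulin genes, 7 of 800, or 0.875%, over all members and 9 of 222, or 4.05%, without the 4 cells had under 0.2 of the level of the other kept cells and are not named among the highest or lowest, as possible background.

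The 12 genes highest in CFA over all members came almost wholly from single cells. Jchain, with 2059 UMIs, was found in the 1 plasma-like cell alone. Calca, Sncg, Map1b, Tac1, Prph, Tubb3, Stmn2, Kcnb2, Stmn3, Hspb1 and Pcsk1n, genes of neurons or of neuronal projections for the most part, had between 97.9% and 100% of their CFA UMIs in 1 cell. Among the immunoglobulin genes, Igha had 2827 CFA and 0 PBS UMIs, 99.9% of them in 1 cell. Igkv6-15 and Iglv1, also over 2-fold higher, had 100% of their 58 and 46 CFA UMIs in 1 cell and 0 UMIs in CFA without the 4 cells, while Iglc3 and Ighm were over 2-fold lower over all members, with ratios of 0.418 and 0.377. Igkc changed direction with these cells, and was at 4927 CPM in PBS and 56323 CPM in CFA over all members, a ratio of 11.4 (10.8 to 12.1), and at 5214 and 2282 CPM without the 4 cells, a ratio of 0.438 (0.387 to 0.494).

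Without the 4 cells, most genes highest in CFA still came from single cells, so the 90 members include further cells with many UMIs of other cell types that the rule had not named. By doublet score, a CFA cell with 10904 UMIs ranked above 99.8% of kept cells, and 1 CFA cell with 5025 UMIs and 1 PBS cell with 5849 UMIs were also in the highest 5%. Pid1, Mt1, Nkain2, Lrrtm4, Cryab, Timp3 and Filip1 had 100% of their CFA UMIs in 1 cell, not the same one for all, and Ctnna3, Ehbp1 and Pmp22 between 77.5% and 95.8%. The exception was 4930597A21Rik, a gene of unknown function, with 23 UMIs in 14 of 30 CFA cells and 0 in 60 PBS cells. In surrogate light chain cells it had 18 UMIs, or 90.6 CPM, in CFA and 0 in PBS, and over all other kept cells 1.41 and 0.0371 CPM.

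The genes lowest in CFA were in part those of glands. Mucl2 had 111 UMIs in 38 of 61 PBS members and 0 in CFA members, and Obp1b, Scgb2b2, Scgb1b2, Scgb2b24 and Gm1553 had 33 to 51 UMIs in PBS and 0 in CFA. Scgb1b20 joined them among the lowest without the 4 cells. Mucl2 was at 1951 CPM in the other PBS cells, above the 461 CPM of the PBS members, and at 0.0227 CPM in the other CFA cells. These secreted proteins of glandular tissue therefore differed between the libraries as a whole. Dach1 had 94.3% of its PBS UMIs in 1 cell, and Gpc6 had 29 PBS UMIs in 2 cells, most of them in the cell that stood apart.

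Ms4a1 and Ly6d were lower in CFA members, Ly6d over many cells and Ms4a1 over a minority, and were also lower in CFA outside the members. Ms4a1 was at 578 CPM in PBS and 79.1 CPM in CFA over all members, and at 613 and 172 CPM without the 4 cells, a ratio of 0.281 (0.177 to 0.429), in 23 of 60 and 8 of 30 cells. Of its 139 PBS and 26 CFA UMIs, 132 and 21 were in the 17 PBS and 4 CFA cells with at least 3. Ly6d was at 2874 and 966 CPM without them, a ratio of 0.336 (0.279 to 0.403), in 57 and 25 cells. In surrogate light chain cells Ly6d was at 305 and 15.1 CPM and Ms4a1 at 93.4 and 0 CPM, and in the other kept cells at 64.3 and 12.2 CPM and at 4.52 and 0.952 CPM. Reln, a secreted matrix protein, was at 494 and 106 CPM, a ratio of 0.214 (0.118 to 0.364), in 17 and 5 cells. The histone genes Hist1h2ap and Hist1h2ae and the replication genes Pcna and Atad2, all linked to S phase, were also among the lowest, with ratios of 0.148 for Hist1h2ap, 0.320 for Hist1h2ae and 0.188 for Pcna without the 4 cells. Pcna had 32 and 4 UMIs there and Atad2 30 and 3. Hist1h2ap was also lower in the other CFA cells, at 107 and 20.8 CPM.

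Of the gene lists, those of the antigen receptor and its markers had lower sums in CFA members once the 4 cells were left out. Both lists hold Cd79a and Cd79b, which chose the cells, so both sums are in part set by the choice. The 5 marker genes summed to 10438 CPM in PBS and 7608 CPM in CFA, a ratio of 0.729 (0.679 to 0.782), and 0.369 over all members. Neither list's sum is given without Cd79a and Cd79b. The antigen receptor and coreceptor list had a ratio of 0.702 (0.661 to 0.745), and of 4.22 with the 4 cells, the opposite direction. With the 5% of cells scored most like doublets removed it was 0.421. Apart from Cd79a and Cd79b, 7 genes of this list had at least 100 CPM. Of these, 1 was over 2-fold higher (Iglc1, 670.0 to 1356 CPM) and 1 over 2-fold lower (Igkc). Iglc1 is a near copy of Iglc2 and Iglc3, and the sum of these lambda genes was not compared here. Iglc3 was lower in CFA, at 339 and 185 CPM, and 110 CFA UMIs of Iglc1 were in the 4 cells with at least 3 Ms4a1 UMIs. Ighm was at 3636 and 2765 CPM, a ratio of 0.760 (0.674 to 0.857).

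Transcription factors of the lineage were nearly level. Their list had a ratio of 1.18 (1.13 to 1.23) without the 4 cells and of 0.625 with them, and 0 of 14 genes were past 2-fold without them. Ebf1, which opens B-lineage genes, was at 8207 and 11597 CPM, Pax5 at 1058 and 1052 CPM, and Bach2 at 8882 and 9189 CPM. Ebf1 was also detected in most endothelial cells, 94.6% in PBS and 87.5% in CFA, so it does not set members apart by presence. Receptor signalling genes had a ratio of 1.13 (1.06 to 1.21), and 0.582 with the 4 cells, with 0 of 15 past 2-fold. The kinases Syk and Lyn were at 1269 and 1396 CPM and at 1834 and 1872 CPM, and the adaptor Blnk at 1150.4 and 1707 CPM.

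The stage lists gave small differences without the 4 cells. Precursor genes had a ratio of 1.17 (1.07 to 1.28), and 0.670 with the 4 cells. Among them Il7r was at 472 and 794 CPM, Sox4 at 463 and 794 CPM, and Vpreb2 and Dntt at 0 in both libraries. Mature B cell genes had a ratio of 0.888 (0.783 to 1.01), and 0.492 with the 4 cells, with 1 of 8 genes, Ms4a1, past 2-fold. Fcer2a (CD23) and Ccr6, genes of mature B cells, were at 0 in both libraries. Plasma cell genes had a ratio of 0.907 (0.743 to 1.10) without the 4 cells, of 6.24 with them, and of 0.569 when the 5% of cells scored most like doublets were removed. Jchain and Tnfrsf17 were at 0 without the 4 cells.

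Constant regions of switched antibody classes were nearly absent. Ighg1, Ighg2b, Ighg2c, Ighg3 and Ighe were at 0 in all 94 members. Igha had 2 UMIs in 2 CFA cells besides the plasma-like cell, in a library in which that cell alone held 2825. With IgM in nearly all cells and IgD in few, the members were for the most part unswitched.

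The cell cycle lists gave unlike ratios of summed UMIs. G2 and M phase genes had a ratio of 0.998 (0.859 to 1.16) without the 4 cells and of 0.488 with them. S phase genes were at 904 CPM in PBS and 576 CPM in CFA, a ratio of 0.637 (0.490 to 0.822), and 0.378 with the 4 cells, on 205 and 87 UMIs. Since 8 PBS and 3 CFA cells were dividing, both lists rest on few cells. Of the 296 CFA UMIs of the G2 and M phase list without the 4 cells, 151 were in 1 cell and 138 in another. As means over cells without the 4 cells, both lists were lower in CFA. The G2 and M phase list was at 1025 and 744 CPM and the S phase list at 553 and 368 CPM.

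Homing receptors had a ratio of 1.10 (0.895 to 1.34), and 0.687 with the 4 cells. Among them Cxcr4, which holds precursors in the marrow, was at 242 and 397 CPM, and S1pr1, which guides exit into blood, at 149.9 and 92.6 CPM. Survival genes had a ratio of 0.919 (0.750 to 1.12), and 0.643 with the 4 cells, with Pim1 at 304 and 364 CPM and the BAFF receptor gene Tnfrsf13c at 212 and 165 CPM. Neither list had a gene past 2-fold without the 4 cells.

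The type I interferon response list had a lower sum in CFA members, mostly through 1 gene. The sum was 1287 CPM in PBS and 397 CPM in CFA without the 4 cells, a ratio of 0.308 (0.230 to 0.408), and 0.508 with them. Of 2 genes with at least 100 CPM, out of 14, 1 was over 2-fold lower and 0 higher. Ifi27l2a, with 204 of the 292 PBS UMIs, led the list at 899 and 258 CPM, a ratio of 0.287 (0.198 to 0.405), in 35 of 60 and 13 of 30 cells, with 51.3% of its CFA UMIs in 1 cell. In the other kept cells it went the opposite way, at 152 and 344 CPM. Isg15 had 18 PBS UMIs, 94.4% of them in 1 cell, and 0 in CFA. Interferon gamma and MHC class I genes had a ratio of 0.909 (0.805 to 1.02), and 0.988 with the 4 cells, with H2-K1 at 1133 and 847 CPM.

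MHC class II genes had a ratio of 1.03 (0.890 to 1.19) without the 4 cells and of 0.549 with them. Cd74 was at 1543 and 1297 CPM and H2-Ab1 at 79.3 and 225 CPM. Of 4 genes with at least 100 CPM, 1, H2-Ab1, was over 2-fold higher and 0 lower. UMIs of class II alpha and beta chains were most frequent in 1 CFA cell with 33, which also held 46 neutrophil UMIs. The next CFA cell had 27, with 22 macrophage UMIs, and the part of such cells in the difference was not tested. Cd74 was detected in 47.5% of PBS members, 60.6% of CFA members, and 2.44% and 34.6% of endothelial cells of those libraries. Thinned members had it in 36.1% (24.2 to 49.4%) and 33.3% (17.96 to 51.8%), and endothelial cells in 0.735% and 17.0%. Whether free RNA added to Cd74 in CFA members was not tested.

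Immediate early genes, which respond to stimulation and to the handling of cells, were higher in CFA without the 4 cells, with a ratio of 1.45 (1.33 to 1.58), and 1.20 with them. From all members, removal of the 5% of cells scored most like doublets moved the 1.20 to 0.867, the opposite direction. Of 10 genes with at least 100 CPM, 4 were over 2-fold higher and 0 lower. Fos was at 57.3 and 576 CPM, a ratio of 10.0 (5.58 to 19.6), with 62.1% of its CFA UMIs in 1 cell. Jund, the most abundant of the list, was at 2222 and 2944 CPM, and Egr1 at 128 and 304 CPM with 60.9% in 1 cell. In the other kept cells Fos was at 2176 and 1894 CPM.

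Genes of other cell types were present in the members and differed between the libraries, and their part in the results was not tested. Of the monocyte and macrophage genes 6 of 7 had UMIs, 7 in PBS and 65 in CFA members without the 4 cells, a ratio of 13.9 (6.39 to 36.0), and 7.73 with them. With at least 2 Cd79a and Cd79b UMIs, which lets in 7 PBS and 5 CFA cells, the ratio reversed to 0.725. Lyz2, limited by the choice, gave 5 of the 7 and 46 of the 65 UMIs, at 22.04 and 304 CPM, and Ccr2 was at 0. Neutrophil genes, 7 of 8 with UMIs, were at 212 and 681 CPM, a ratio of 3.22 (2.27 to 4.64), and 1.74 with the 4 cells, led by S100a9, with Mmp8 at 0. With no hemoglobin limit the neutrophil ratio was 0.193, the opposite direction. S100a9 had a UMI in 32.8% and 69.7% of members and in 29.7% and 51.6% of endothelial cells, and thinned in 11.5% and 15.2% against 5.76% and 16.6%. Of the 103 neutrophil UMIs in CFA, 46 were in 1 cell.

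Schwann genes, 3 of 3 with UMIs, had 14 and 181 UMIs, a ratio of 19.4 (11.3 to 36.2), and 9.51 with the 4 cells. Of the 46 CFA UMIs of Mbp, 82.6% were in 1 cell. With the 5% of cells scored most like doublets removed, this ratio reversed to 0.541. Erythroid genes, 6 of 7 with UMIs and for the most part the hemoglobin genes limited by the choice, were at 2085 and 410.2 CPM, a ratio of 0.197 (0.148 to 0.257), and 0.140 with the 4 cells, led by Hbb-bs, with Alas2 at 0. With no hemoglobin limit this ratio was 0.00107. Of all UMIs, hemoglobin genes took 20.7% after PBS and 7.89% after CFA. Fibroblast genes, 5 of 5, had 73 and 23 UMIs, a ratio of 0.473 (0.282 to 0.765), and 1.81 with the 4 cells, led by Col1a1. The rule for the 4 cells used this list, so the ratio without them is limited by that rule. Endothelial genes, 4 of 4 and limited by the choice, were led by Pecam1 with 27 and 16 UMIs in all, a ratio of 0.889 (0.448 to 1.71), and 0.515 with the 4 cells.

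T and NK cell genes, 1 of 8 with a UMI, had 1 PBS UMI, of Nkg7, and 0 CFA UMIs, with Cd3d, Cd3e, Cd3g, Cd4 and Cd8a at 0. Granulocyte progenitor genes, 3 of 4 and led by Prtn3, had 5 and 8 UMIs, a ratio of 2.40 (0.693 to 9.33), and 1.17 with the 4 cells, with Ctsg at 0. Genes of bone and cartilage, 5 of 5 and led by Bglap, had 16 and 7 UMIs, a ratio of 0.657 (0.228 to 1.69), and 0.732 with the 4 cells. Conventional dendritic cell genes, 3 of 5 and led by Flt3, had 4 and 5 UMIs, a ratio of 1.88 (0.404 to 9.45), and 1.28 with the 4 cells, with Xcr1 and Cd209a at 0. Plasmacytoid dendritic cell genes, 3 of 6, had 92 and 85 UMIs, a ratio of 1.39 (1.02 to 1.88), and 0.802 with the 4 cells, led by Tcf4, which other cells share, with Siglech, Klk1 and Cd300c at 0.

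The last comparison set the members against the 29 PBS and 23 CFA surrogate light chain cells of the same libraries, to show what changes along the lineage. Median depths of those cells were 5752 and 5807 UMIs. Of 3167 genes with at least 100 CPM in 1 group, 77, or 2.43%, were over 2-fold higher in later cells of both libraries and 104, or 3.28%, over 2-fold lower, together 5.72%. Within 1 library, 9.50% were higher and 9.98% lower in PBS, and 15.8% and 15.6% in CFA. Without the 4 cells that stand apart, 180 genes were higher and 179 lower in both. The groups were chosen by Igll1 and Vpreb1, which were left out, and the counts describe groups so chosen, with no test.

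Genes of the assembled receptor led those higher in later cells. The log2 ratios of Iglc1, without the 4 cells, were 5.51 in PBS and 7.09 in CFA, and those of Igkc were 2.43 and 2.92. Ly6d had 3.20 and 5.28, Ms4a1 2.59 and 4.19, and Bank1 2.51 and 4.45. Agbl1, whose role in B cells is not established, had 3.94 and 5.90, and Klhl14, a gene of B-lymphocytes, 2.39 and 4.14. Iglc2, Iglc3 and Slfn2 were also among the 12 highest. Stac and Evi5 were among them only through the CFA cells that stand apart, with CFA values of 0.00 and -0.60 without those cells.

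Genes of the earliest B-lineage steps were among those lowest in later cells. Dntt, the enzyme that adds bases at heavy chain joints, was at 569.9 CPM in PBS and 257 CPM in CFA surrogate light chain cells and at 0 in members of both libraries. Vpreb2, a further surrogate light chain gene, was at 197 and 80.6 CPM and also at 0 in members. Lef1, a factor of dividing precursors, had log2 ratios of -2.96 and -2.90 without the 4 cells, Arpp21 of -4.76 and -3.82, and Erg of -3.17 and -2.47. Gm30948, Gfra2, Tiam1 and Nrgn were also among the 12 lowest. Prg4, Eng and Col15a1, genes of lining fibroblasts and of vessels, were there too, and Prg4 was the lowest of these without the 4 cells, with log2 ratios of -7.08 and -5.21 against -5.86 and -4.74 for Dntt. The surrogate light chain cells were not searched for cells that stand apart, and fibroblast genes made up 2550.0 and 3837 CPM of their UMIs. In all members these genes were at 2461 and 4453 CPM, and without the 4 cells at 322 and 152 CPM. The ratios without the 4 cells therefore compare a group searched for such cells with one that was not.

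By list, the antigen receptor and coreceptor sum was 15053 CPM in PBS members and 5326 CPM in surrogate light chain cells, and 10565 and 3751 CPM in CFA, without the 4 cells. This list holds Cd79a and Cd79b, which chose both groups, so its sums are in part set by the choice. Mature B cell genes were at 3011 and 938 CPM in PBS and at 2673 and 780.5 CPM in CFA. MHC class II genes were at 2001 and 649 CPM, and at 2064 and 242 CPM. S phase genes went the other way, at 904 and 2132 CPM in PBS and at 576 and 2452 CPM in CFA. G2 and M phase genes had no common direction, at 1961 CPM in members and 1361 CPM in surrogate light chain cells of PBS but 1958 and 2296 CPM in CFA. In both libraries, later cells had higher sums of the mature and MHC class II lists and a lower sum of the S phase list. The receptor sum was also higher, with Cd79a and Cd79b included in it.

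**Figure D5:**
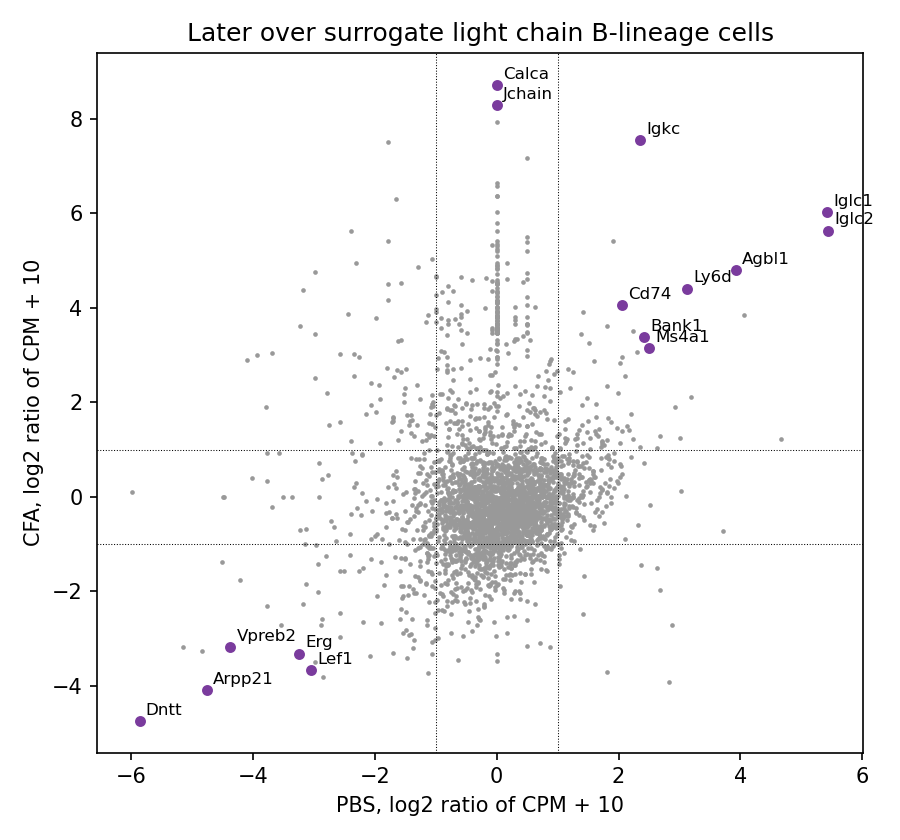
Log2 ratio of CPM plus 10 in later over surrogate light chain B-lineage cells in the CFA library (vertical axis) against the PBS library (horizontal axis), for 3167 genes over all members, with dotted lines at 2-fold. Iglc1, Iglc2, Agbl1, Ly6d and Igkc lie high in both libraries and Dntt, Arpp21, Vpreb2, Erg and Lef1 low, while Calca and Jchain lie high in CFA alone, through single cells.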

How the data were processed

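Single-cell RNA sequencing of mouse TMJ was read from 2 libraries, 1 after PBS and 1 after CFA. The authors deposited UMI counts per gene and barcode, made with Cell Ranger 7.0.1 on the mm10 (GRCm38) genome per the submitters' processing notes, and no normalization had been applied. The tables held 32285 genes. Groups came from the labels. With 1 library per condition there was no replicate, so no test was made, and cells are not replicates. The kind of cells, their rule and the gene lists were chosen with earlier results from these data known.

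Barcodes were kept and members chosen by raw UMIs as the report states. Shares have exact Clopper-Pearson intervals, UMI sums exact Poisson intervals and ratios of sums exact conditional intervals, at 95%, for counting error only. Sums over cells were scaled to CPM by summed UMIs. Genes were compared when 1 group had at least 100 CPM, as ratios with 10 CPM added and a 2-fold threshold. In all, 27 lists with 256 genes were summed. Shares of cells with a UMI were also taken after thinning each cell to 1000 UMIs without replacement (seed 1, with a separate seed for each cell). Cells with fewer UMIs were left out, which were 0 members, 3 PBS and 12 CFA endothelial cells. Thinning was first run with 1 random stream over all cells of a library. The form was changed after the first Ighd value had been seen, and both values are given. Doublets were scored with Scrublet and not removed, and an alternative removed the 5% of each library with the highest scores. A self-test ran the calculations on simulated data.

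Besides genes of the lists, the genes named were the 12 highest and 12 lowest by CFA to PBS ratio among those past 2-fold with at least 10 UMIs, immunoglobulin genes apart. Genes under 0.2 of the CPM of the other kept cells, in the library where they were higher, were left out of these. Also named were the 20 genes highest in members over other kept cells, and the 12 highest and 12 lowest against surrogate light chain cells, both by the smaller fold of the libraries. Cells that stand apart, the Rag and Ms4a1 ranges, the genes named from these ranges and the 100 thinning draws were chosen after seeing the data.

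Alternatives changed the limits on Cd79a and Cd79b, hemoglobin, mitochondrial UMIs, genes, Lyz2 and doublets, the denominator, the definition of dividing cells, thinning, scaling, the CPM minimum, the use of dividing cells and the limit on Igll1 and Vpreb1. Gene positions are from GENCODE vM21 and promoters from RefSeq on GRCm38.p6. Tools were Python 3.11.15, numpy 2.4.6, scipy 1.17.1, pandas 2.3.3, matplotlib 3.10.9 and scanpy 1.11.5, which includes Scrublet.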

Additional observations from a re-analysis of the deposited data

How the results depend on the processing

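The share of kept cells that were later B-lineage cells was lower in CFA than in PBS under every alternative run. Its CFA to PBS ratio of 0.359 moved to 0.207 with Lyz2 under 2 UMIs, which left 19 of the CFA members, and to 0.696 with the denominator of cells without hemoglobin or mitochondrial limits, which adds more PBS than CFA cells. The 8 other alternatives kept it within its interval. None of the alternatives changed the limit on Pecam1 and Cdh5. The ratio of dividing cells stayed under 1 and within its interval in all 11 alternatives, from 0.409 to 0.803. That of cells with Ighd after thinning, 1.48, was 0.370 (0.0451 to 3.03) with 1 random stream over all cells of a library, the form first run, and the other 12 alternatives stayed within its interval. The form was changed after 0.370 had been seen. Over 100 draws, chosen after seeing the data, the ratio of mean shares was 1.18. The number of cells, 5 PBS and 4 CFA, limits this result.

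The count of genes past 2-fold between CFA and PBS, 806 with 471 higher and 335 lower in CFA, depended on single deep cells. It was 224 (134 higher, 90 lower) without the 4 cells that stand apart, 319 (163 higher, 156 lower) with Cd79a and Cd79b each at least 1 UMI, which leaves out the deepest CFA cell among other changes of members, and 241 (130 higher, 111 lower) with the mean over cells. It was 339 with Lyz2 under 2 UMIs, 93 of them higher. With at least 50 CPM, which admits more genes, it was 1470 (863 higher, 607 lower), and with at least 200 CPM, which admits fewer, 354 (194 higher, 160 lower). Scaling by the median ratio gave 763 higher and 134 lower, and no hemoglobin limit 102 lower. The 181 genes past 2-fold between later and surrogate light chain cells in both libraries, 77 higher and 104 lower, became 359 (180 higher, 179 lower) without the 4 cells, 287 with 176 lower without dividing cells, and 122 higher with median-ratio scaling.

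Ratios of list sums, CFA to PBS, also depended on these cells. For lists past 2-fold over all members, 6 values changed direction: antigen receptor 0.702 and plasma cell 0.907 without the 4 cells, antigen receptor 0.421, plasma cell 0.569 and Schwann 0.541 without the 5% of cells with the highest Scrublet scores, and monocyte and macrophage 0.725 with Cd79a and Cd79b of at least 2 UMIs. The plasma-like CFA cell held 98.1% of the Igkc UMIs, which the antigen receptor list sums. For the other changes the cause was not tested. Lists within 2-fold over all members had no called direction, and many of their ratios crossed 1 in the values below, among them transcription factors, precursor, signalling, neutrophil, immediate early and fibroblast.

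Other ratios moved outside their intervals. Without the 4 cells, a setting chosen after seeing the data, they were markers 0.729, transcription factors 1.18, precursor 1.17, mature 0.888, MHC class II 1.03, signalling 1.13, G2 and M phase 0.998, S phase 0.637, homing 1.10, survival 0.919, type I interferon 0.308, immediate early 1.45, neutrophil 3.22, erythroid 0.197, plasmacytoid dendritic cell 1.39, fibroblast 0.473 and Schwann 19.4. With Cd79a and Cd79b each at least 1 UMI they were markers 0.543, antigen receptor 6.43, transcription factors 0.915, precursor 0.913, mature 0.695, MHC class II 0.826, signalling 0.876, plasma cell 9.54, G2 and M phase 0.742, S phase 0.504, homing 0.866, survival 0.9002, type I interferon 0.706, interferon gamma 1.40, immediate early 1.4998, neutrophil 2.64, plasmacytoid dendritic cell 1.20 and fibroblast 2.75. With the mean over cells of each cell's CPM they were markers 0.716, antigen receptor 1.75, transcription factors 1.13, precursor 1.14, mature 0.886, MHC class II 0.980, signalling 1.08, plasma cell 2.54, G2 and M phase 0.671, S phase 0.632, homing 1.005, survival 0.925, type I interferon 0.308, immediate early 1.33, neutrophil 3.01, erythroid 0.190, plasmacytoid dendritic cell 1.25 and fibroblast 1.56. With scaling by the median ratio of genes they were markers 0.480, antigen receptor 5.49, transcription factors 0.813, precursor 0.872, mature 0.640, MHC class II 0.714, signalling 0.757, plasma cell 8.11, G2 and M phase 0.635, S phase 0.492, homing 0.893, survival 0.837, type I interferon 0.661, interferon gamma 1.28, immediate early 1.56, erythroid 0.182 and fibroblast 2.35.

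With Lyz2 under 2 UMIs the ratios were markers 0.567, antigen receptor 10.7, transcription factors 0.938, precursor 0.969, mature 0.684, MHC class II 0.717, signalling 0.829, plasma cell 16.0, G2 and M phase 0.631, S phase 0.708, homing 0.952, survival 0.883, type I interferon 0.289, interferon gamma 0.872, neutrophil 3.11, erythroid 0.205, plasmacytoid dendritic cell 1.27, fibroblast 0.0523 and Schwann 24.9. With no hemoglobin limit, which admits PBS cells mixed with red cell RNA, they were markers 0.638, antigen receptor 7.25, transcription factors 1.06, precursor 1.13, mature 0.815, MHC class II 0.933, signalling 0.992, plasma cell 10.4, G2 and M phase 0.755, S phase 0.545, homing 0.933, survival 0.853, interferon gamma 1.55, immediate early 1.41, neutrophil 0.193, granulocyte progenitor 0.173, erythroid 0.00107, monocyte and macrophage 1.20, plasmacytoid dendritic cell 1.07, fibroblast 0.742, bone and cartilage 0.0829 and Schwann 2.70. Without the 5% highest Scrublet scores they were markers 0.439, transcription factors 0.714, precursor 0.775, signalling 0.687, G2 and M phase 0.632, type I interferon 0.241, interferon gamma 0.600, immediate early 0.867 and fibroblast 0.0368. Without dividing cells they were markers 0.309, antigen receptor 4.06, transcription factors 0.526, mature 0.384, MHC class II 0.463, signalling 0.513, plasma cell 7.37, G2 and M phase 0.0696, S phase 0.646, immediate early 1.05 and fibroblast 1.60. With Cd79a and Cd79b of at least 2 UMIs they were antigen receptor 4.48, transcription factors 0.593, type I interferon 0.707, interferon gamma 1.14 and fibroblast 2.41, and with summed UMIs without immunoglobulin, hemoglobin and S100a8 and S100a9 genes antigen receptor 4.47 and transcription factors 0.663.

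In the remaining 181 cases a list ratio stayed within its interval. The lists of switched constant regions and of T and NK cells had 0 UMIs in 1 library, so they have no ratio. All these values come from 1 library per condition, and depth limits them to genes of many UMIs, with 240529 UMIs over the PBS and 328801 over the CFA members. No paired analysis was possible because each condition had 1 library.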
